A study of Mus musculus with 24 samples.

Results

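Oligodendrocytes wrap axons in myelin, a stack of membrane rich in lipid and in a small number of proteins. They arise from dividing precursors that carry the growth factor receptor Pdgfra and the proteoglycan Cspg4 (NG2), pass through a stage in which Gpr17 and Bcas1 are high, and then switch on the myelin genes under the factors Sox10 and Myrf. In bulk brain RNA, fewer cells of a type and less RNA per cell cannot be told apart. The genes described here are 37 named members of this lineage, taken by symbol from the 52636 gene identifiers of the count files. All 37 passed the filter on low counts that left 19726 genes for testing. They comprise 10 structural myelin genes, 4 genes of myelin lipid and acetate metabolism, 2 gap junction genes, 6 lineage transcription factors, 2 precursor genes, 2 genes of committed precursors and new oligodendrocytes, and 11 other oligodendrocyte genes.

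The study concerns loss of EAAT2, the main glutamate transporter of brain, encoded by Slc1a2, from neurons or from astrocytes. Total RNA of mouse brain was sequenced from 24 mice in 4 groups of 6. The groups were syn Cre-positive mice (syn-Cre+, EAAT2−/−), syn Cre-negative mice (syn-Cre−, EAAT2+/+), gfap Cre-positive mice (gfapCre+, EAAT2Δ/+) and gfap Cre-negative mice (gfap-Cre−, EAAT2+/+). The genotype written for the Cre-positive mice thus differs between the lines. Cre under a promoter named syn acts in neurons and under one named gfap in astrocytes, and some gfap promoters are also active in progenitors that give rise to oligodendrocytes. The labels used here state no age, sex, strain, brain region or dissection.

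Counts in genes summed to 41596313 to 69652824 per library. Slc1a2 had a lowest, median and highest level of 2616, 3031 and 3235 CPM (read counts scaled to library size) in syn Cre-positive mice, against 3227, 3292 and 3461 CPM in syn Cre-negative mice. It had 3043, 3549 and 3855 CPM in gfap Cre-positive mice, against 2494, 3636 and 3980 CPM in gfap Cre-negative mice. Its change was -0.14 on the log2 scale for syn mice and -0.02 for gfap mice, and neither passed the test (edgeR adjusted p = 1.00 and 1.00). The labels used here do not name the exons that Cre removes, so a count over the whole gene does not check the deletion. Ttr, the most abundant choroid plexus transcript of the list used, exceeded 1000 CPM in 6 libraries, 3 from each syn group and none from the gfap groups. The label names brain only: cortex markers summed to 279.7 to 427.3 CPM over all libraries, and the 5 hindbrain genes of the list to at most 0.343 CPM.

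The promoter sequences below belong to 4 members on which the results turn. Hapln2, a link protein of the node of Ranvier, had the widest difference between the lines in both Cre states, with Trf close to it between Cre-positive mice. Gjc3, the connexin 29 gene, had the smallest p of the members between the Cre-negative groups. Opalin, a membrane protein of mature oligodendrocytes, had values of opposite sign in the Cre comparisons of the lines, and neither passed. Other members, among them Tmem125, also had values of opposite sign. Pdgfra was the only member called lower in the syn line. Each sequence holds bases before the start of the gene in RefSeq (GRCm38.p6), read 5′ to 3′ on the strand of the gene, and that of Hapln2 stops where the GENCODE gene model begins. Capitals mark a match to ACAAAG or ACAAT, core sequences bound by SOX factors, or to CAGCTG, an E-box bound by bHLH factors such as OLIG2.
Hapln2: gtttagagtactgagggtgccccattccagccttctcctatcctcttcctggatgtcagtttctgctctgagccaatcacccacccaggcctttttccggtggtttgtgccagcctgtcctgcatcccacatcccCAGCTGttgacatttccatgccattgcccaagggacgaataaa
Gjc3: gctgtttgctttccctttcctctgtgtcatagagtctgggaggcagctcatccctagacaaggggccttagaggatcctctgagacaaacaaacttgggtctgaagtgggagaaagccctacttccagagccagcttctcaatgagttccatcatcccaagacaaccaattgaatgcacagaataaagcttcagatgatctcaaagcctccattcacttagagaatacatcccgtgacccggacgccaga
Opalin: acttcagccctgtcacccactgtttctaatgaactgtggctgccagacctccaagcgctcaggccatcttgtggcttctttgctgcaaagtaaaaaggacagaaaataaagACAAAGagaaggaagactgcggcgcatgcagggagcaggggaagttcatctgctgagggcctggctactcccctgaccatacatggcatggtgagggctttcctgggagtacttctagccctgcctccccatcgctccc
Pdgfra: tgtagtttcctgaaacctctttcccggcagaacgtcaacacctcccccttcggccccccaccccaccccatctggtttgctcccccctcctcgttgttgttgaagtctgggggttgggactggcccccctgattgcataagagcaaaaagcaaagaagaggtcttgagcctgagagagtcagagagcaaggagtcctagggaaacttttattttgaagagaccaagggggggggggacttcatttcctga

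The Hapln2 window lies at chr3:88027584-88027761 and the Gjc3 window at chr5:137963099-137963348, both on the minus strand. The Opalin window lies at chr19:41077114-41077363 on the minus strand and the Pdgfra window at chr5:75152001-75152250 on the plus strand. RefSeq windows were matched for 27 of the 37 members, with 37 windows in all because of alternative starts. Over the 250 bases before the start and on both strands, ACAAAG was present in 29.7% of member windows and in 16.5% of all 32851 windows. ACAAT was present in 32.4% of member windows and 27.7% of all windows, and CAGCTG in 5.4% of member windows and 13.0% of all windows. For Hapln2 the 250 bases include 72 that are not printed, and they hold 4 matches, against 1 in the printed part. Hapln2 counts among the members with ACAAT, which the printed part lacks. No stretch can match more than 1 of these motifs in full. A match describes letters only, and the absence of a match says nothing about the factor.

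Levels of the members spanned a wide range. Averaged over the 24 libraries and divided by exon length, they ran from 0.723 CPM per kilobase for Nkx2-2, a factor of early oligodendrocyte differentiation, to 284 CPM per kilobase for Mbp (myelin basic protein), with a median of 11.8 CPM per kilobase. Mobp, another structural myelin protein, stood at 120.4 CPM per kilobase and Cnp, a phosphodiesterase of myelin, at 92.6 CPM per kilobase. The precursor genes lay below the median, at 6.09 CPM per kilobase for Pdgfra and 1.98 CPM per kilobase for Cspg4. Raw counts in single libraries ran from 72 for Nkx2-2 to 182620 for Mbp. The spread between mice of a group, as a pooled SD of log2 CPM, was lowest for Car2 (0.107), had a median of 0.204 and was highest for Nkx6-2 (0.358). Trf, the transferrin gene, shares 63.5% of its exon bases with another gene model on the same strand, so its count is uncertain. The labels used here do not state a strand setting for the counting, and 12 further members share under 20% of their exon bases with other gene models.

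**Figure D1:**
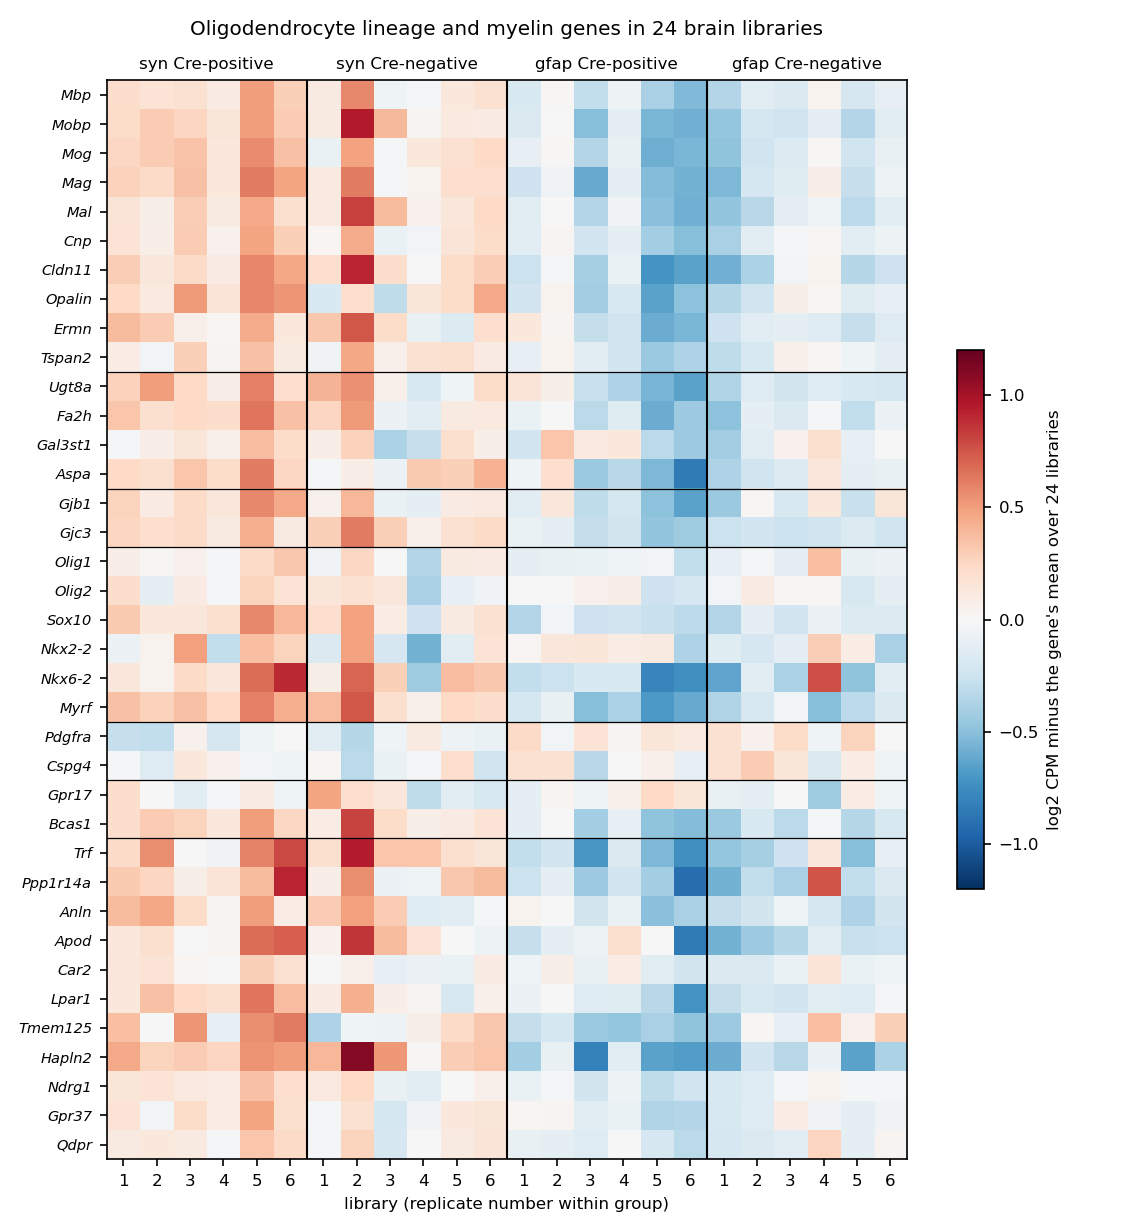
Level of each of the 37 members (rows, grouped by role) in each of the 24 libraries (columns), as log2 CPM minus the mean of that gene over all libraries. Most rows are higher in the syn libraries than in the gfap libraries, and Pdgfra runs the other way.

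The first comparison asks whether loss of EAAT2 in neurons moved the oligodendrocyte genes. No member passed the edgeR quasi-likelihood test (0 of 37, Benjamini-Hochberg adjusted p under 0.05 over all 19726 genes), where 0.00507% of all tested genes did. The values leaned upward: 28 of 37 members had a positive and 9 a negative log2 fold change, with a median of 0.105, beside a median of -0.003 over all genes. An unadjusted p under 0.05 was found for 5 members and for 922 genes in all, and DESeq2 and limma-voom also called 0 members.

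Among the structural myelin genes, Mbp had a lowest, median and highest level of 2530, 2712 and 3345 CPM in syn Cre-positive mice, against 2285, 2564 and 3524 CPM in syn Cre-negative mice. The first range lay within the second, and the log2 fold change was 0.08 ± 0.10 (SE; 95% interval -0.12 to 0.28). Opalin had the highest value of the class, with 25.9, 31.1 and 35.8 CPM in syn Cre-positive mice, against 19.3, 26.9 and 32.6 CPM in syn Cre-negative mice. Its ranges overlapped in part, and its log2 fold change of 0.26 ± 0.12 did not pass (edgeR unadjusted p = 0.0424, adjusted p = 1.00). Mog, a protein of the outermost myelin layer, had 55.9, 63.8 and 75.6 CPM in syn Cre-positive mice, against 48.2, 56.8 and 71.1 CPM in syn Cre-negative mice, with a log2 fold change of 0.16 ± 0.10. The 10 structural genes divided into 5 positive and 5 negative values, the lowest being -0.10 for Mal, a proteolipid of compact myelin.

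The 4 lipid and acetate genes all had positive values in the syn line over all libraries. They are Ugt8a, which makes galactocerebroside, Gal3st1, which sulphates it, Fa2h, which hydroxylates its fatty acids, and Aspa, which frees acetate from N-acetylaspartate. Fa2h had the smallest p of the 4, with 36.6, 39.1 and 50.0 CPM in syn Cre-positive mice, against 29.3, 34.7 and 45.6 CPM in syn Cre-negative mice, and a log2 fold change of 0.19 ± 0.11. The 6 lineage factors were also all positive over all libraries, from 0.06 for Myrf to 0.19 for Nkx2-2, with Sox10 at 0.15 ± 0.09. Without the 6 libraries rich in Ttr, the values of 4 of these factors were negative, at -0.15 for Myrf, -0.22 for Nkx6-2, -0.06 for Olig1 and -0.05 for Sox10, as were those of Ugt8a, Fa2h and Gal3st1 (-0.11, -0.03 and -0.11). That set lacks syn Cre-positive library 5 and keeps syn Cre-negative library 2, each the highest of its group for most members. Sox10 had 53.1, 57.9 and 72.4 CPM in syn Cre-positive mice, against 41.0, 53.8 and 68.2 CPM in syn Cre-negative mice. Of the gap junction genes, Gjb1 (connexin 32) stood at 0.21 ± 0.12 and Gjc3 at -0.06 ± 0.08, and neither passed.

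Of the other oligodendrocyte genes, Car2 (carbonic anhydrase 2) had the smallest p of all members in the syn line. It had 212, 235 and 259 CPM in syn Cre-positive mice, against 198, 208 and 227 CPM in syn Cre-negative mice, with a log2 fold change of 0.15 ± 0.06 (edgeR unadjusted p = 0.0201, adjusted p = 0.973). Tmem125, a transmembrane protein gene, had the highest value of the 37 members, 0.32 ± 0.13, with 6.06, 8.84 and 10.0 CPM in syn Cre-positive mice, against 5.01, 6.55 and 8.12 CPM in syn Cre-negative mice. In both genes the ranges of the groups overlapped.

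The precursor genes showed no lean in the syn line. Pdgfra had 49.6, 55.7 and 62.9 CPM in syn Cre-positive mice, against 47.9, 58.0 and 65.3 CPM in syn Cre-negative mice, a log2 fold change of -0.04 ± 0.07 (95% interval -0.18 to 0.11). Cspg4 had 21.1, 23.2 and 25.6 CPM in syn Cre-positive mice, against 18.8, 22.8 and 27.1 CPM in syn Cre-negative mice, a log2 fold change of 0.06 ± 0.09. For both genes the Cre-positive range lay within the Cre-negative range. Gpr17, a receptor of committed precursors, had 26.5, 28.9 and 33.7 CPM in syn Cre-positive mice, against 23.6, 29.3 and 40.4 CPM in syn Cre-negative mice, a log2 fold change of -0.04 ± 0.10. Bcas1, a marker of newly myelinating cells, stood at 0.01 ± 0.12.

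The lean of the myelin genes in the syn line changed sign with the libraries used. The median log2 fold change of the 14 structural and lipid genes was 0.12 over all libraries. It was -0.09 without the 6 libraries rich in Ttr, which left 3 mice in each syn group, and no member was called in that fit. Those 6 include syn Cre-positive library 5, the highest of its group for all 14 myelin genes. Syn Cre-negative library 2, the highest of its group for 12 of the 14, stayed in. The part of either library in the change of sign was not tested. The 6 choroid plexus markers summed to 68.4, 1146 and 5057 CPM (lowest, median and highest) in syn Cre-positive mice, against 100.2, 2013 and 5315 CPM in syn Cre-negative mice, and their part in the lean was not tested. The 1 gene of the whole table that passed in this comparison was the astrocyte water channel gene Aqp4, at 0.55 ± 0.06, named after its value was seen.

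The second comparison asks the same of the astrocytic arm. Again 0 of 37 members passed, where 0.0101% of all tested genes did, and DESeq2 and limma-voom called 0 as well. Here the values leaned downward: 31 of 37 were negative and 6 positive, with a median log2 fold change of -0.06, beside -0.003 over all genes. An unadjusted p under 0.05 was found for 1 member and for 590 genes in all.

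All 10 structural myelin genes had negative values in the gfap line, from -0.19 for Opalin to -0.02 for Mal. Mbp had 1638, 2002 and 2386 CPM in gfap Cre-positive mice, against 1849, 2122 and 2427 CPM in gfap Cre-negative mice, a log2 fold change of -0.08 ± 0.10 (95% interval -0.28 to 0.12). Opalin had 15.3, 19.1 and 24.6 CPM in gfap Cre-positive mice, against 18.8, 21.95 and 24.98 CPM in gfap Cre-negative mice. Mog had 33.98, 43.8 and 51.5 CPM in gfap Cre-positive mice, against 36.4, 44.4 and 51.4 CPM in gfap Cre-negative mice. In each of these genes the Cre-positive range reached lower and the ranges overlapped.

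Tmem125 was the member with an unadjusted p under 0.05, at 0.00328 by edgeR (adjusted p = 1.00). It had 4.64, 4.86 and 5.60 CPM in gfap Cre-positive mice, against 4.81, 6.65 and 8.32 CPM in gfap Cre-negative mice, a log2 fold change of -0.43 ± 0.13 with overlapping ranges. Apod, an apolipoprotein, had the highest value of the members, 0.18 ± 0.18. Among the factors, Nkx6-2, which acts in mature oligodendrocytes, had the smallest p, with 3.68, 5.24 and 5.60 CPM in gfap Cre-positive mice, against 4.09, 5.32 and 10.9 CPM in gfap Cre-negative mice, and a log2 fold change of -0.30 ± 0.21. With single libraries left out that value ran from -0.39 to -0.05, the value nearest 0 being that without gfap Cre-negative library 4, which had the 10.9 CPM. Aspa stood at -0.17 ± 0.13 and Gjb1 at -0.17 ± 0.12.

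Pdgfra was level in the gfap line at -0.01 ± 0.07, with 59.2, 66.5 and 71.0 CPM in gfap Cre-positive mice, against 58.4, 66.0 and 73.0 CPM in gfap Cre-negative mice. Cspg4 had 18.7, 24.1 and 26.8 CPM in gfap Cre-positive mice, against 20.8, 25.6 and 29.1 CPM in gfap Cre-negative mice, a log2 fold change of -0.08 ± 0.09. Gpr17 had 27.1, 30.1 and 34.3 CPM in gfap Cre-positive mice, against 21.7, 27.8 and 31.0 CPM in gfap Cre-negative mice, a log2 fold change of 0.14 ± 0.10. The ranges of all 3 genes overlapped between the groups.

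**Figure D2:**
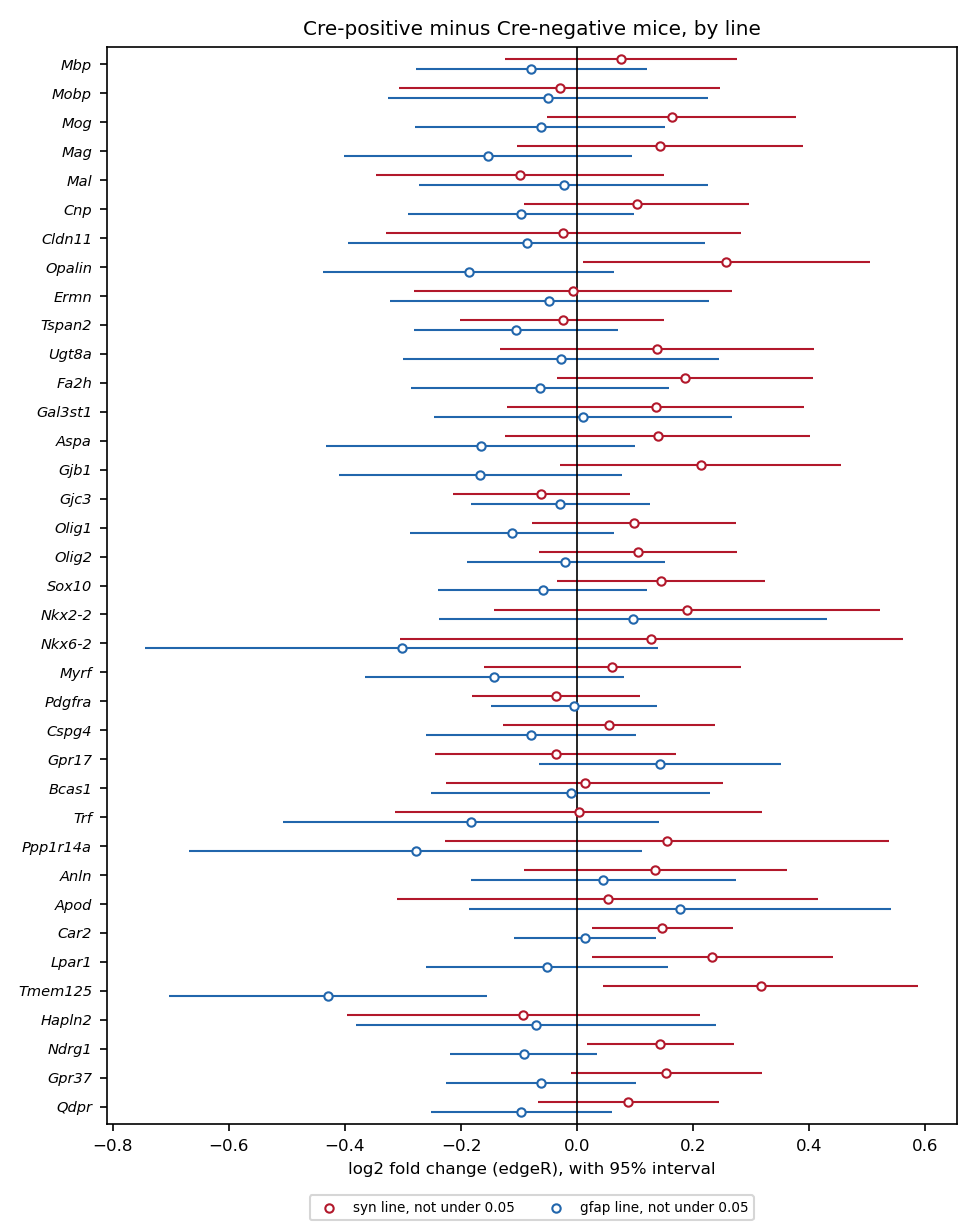
Log2 fold change of Cre-positive over Cre-negative mice for each member, with 95% intervals from edgeR, in the syn line and in the gfap line. No member passed in either line; 28 of 37 values are positive in the syn line and 31 of 37 negative in the gfap line.

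The difference of the Cre effects, syn minus gfap, was tested directly. No member passed (0 of 37, where 0.0101% of all tested genes did), and DESeq2 and limma-voom called 0 members. An unadjusted p under 0.05 was found for 4 members and for 691 genes in all. The median difference over the members was 0.165 on the log2 scale, with 31 of 37 positive, beside 0.001 over all genes. Tmem125 had the widest difference, 0.75 ± 0.19 (edgeR unadjusted p = 0.00045, adjusted p = 1.00), followed by Opalin at 0.45 ± 0.17. For the 14 myelin genes the median difference was 0.16 over all libraries and 0.001 without the 6 libraries rich in Ttr. The limit of that set of libraries is given above.

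The lines were next compared with each other at the same Cre state, and most members were higher in the syn line. Between the Cre-positive groups 32 of 37 members passed the edgeR test, 31 higher and 1 lower, against 27.5% of all genes (12.8% higher and 14.7% lower). Between the Cre-negative groups, both EAAT2+/+, 21 of 37 passed, 20 higher and 1 lower, against 31.2% of all genes (14.6% higher and 16.6% lower). The median log2 fold change of the members was 0.48 between Cre-positive and 0.31 between Cre-negative mice, beside -0.02 over all genes in each. The 21 members called between Cre-negative mice were all called between Cre-positive mice too, where they made up 65.6% of the calls. A further 11 were called between Cre-positive mice alone, and the test of the difference given above called none of them.

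**Figure D3:**
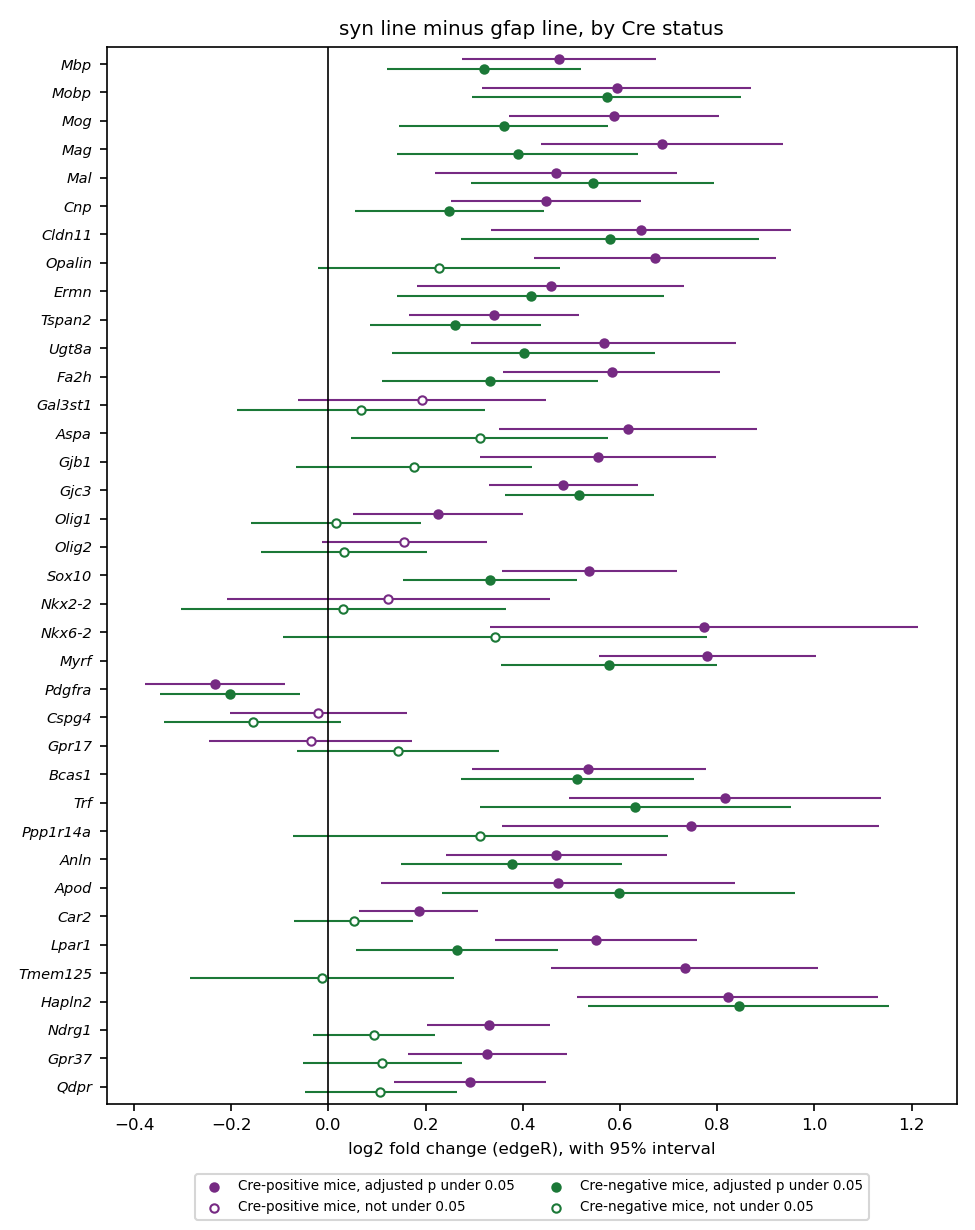
Log2 fold change of the syn line over the gfap line for each member, with 95% intervals from edgeR, in Cre-positive and in Cre-negative mice; filled points have an adjusted p under 0.05. Pdgfra is the only called member left of 0.

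The structural myelin genes were called higher in the syn line for 10 of 10 genes between Cre-positive and 9 of 10 between Cre-negative mice, where Opalin missed (edgeR adjusted p = 0.157). Mbp had the 2530 to 3345 CPM given above in syn Cre-positive mice, against 1638 to 2386 CPM in gfap Cre-positive mice, without overlap. Its log2 fold change was 0.48 ± 0.10 between Cre-positive mice (edgeR adjusted p = 0.00103) and 0.32 ± 0.10 between Cre-negative mice, where the ranges overlapped. Mobp had 884, 969.9 and 1129 CPM in syn Cre-positive mice, against 537, 635 and 798 CPM in gfap Cre-positive mice, a log2 fold change of 0.59 ± 0.13. It had 816, 865 and 1549 CPM in syn Cre-negative mice, against 579, 682 and 736 CPM in gfap Cre-negative mice, a log2 fold change of 0.57 ± 0.13. No syn library overlapped a gfap library for Mobp in either Cre state.

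Mag, an adhesion protein of the inner myelin membrane, had log2 fold changes of 0.69 ± 0.12 between Cre-positive and 0.39 ± 0.12 between Cre-negative mice. Mog stood at 0.59 ± 0.11 and 0.36 ± 0.11 in the same comparisons, and Cldn11, the tight junction protein of myelin, at 0.64 ± 0.15 and 0.58 ± 0.15. Mal, at 0.47 ± 0.12 and 0.54 ± 0.12, did not overlap between the lines in either Cre state. The call of Cnp between Cre-negative mice (0.25 ± 0.10, edgeR adjusted p = 0.0468) was lost without any 1 of 12 libraries, with adjusted p between 0.0527 and 0.147. Ermn, a cytoskeletal protein of myelinating cells (0.46 ± 0.13 and 0.42 ± 0.13), and the tetraspanin gene Tspan2 (0.34 ± 0.09 and 0.26 ± 0.09) were called in both.

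Of the lipid and acetate genes, Ugt8a and Fa2h were called in both comparisons and Aspa between Cre-positive mice (0.62 ± 0.13). Between Cre-negative mice Aspa missed (0.31 ± 0.13, edgeR adjusted p = 0.0675) and was called by DESeq2 and limma-voom (adjusted p = 0.0316 and 0.0275). Gal3st1 was called in neither (0.19 ± 0.13 and 0.07 ± 0.13). Fa2h had 21.2, 27.3 and 32.2 CPM in gfap Cre-positive mice, all below the syn Cre-positive libraries given above, and a log2 fold change of 0.58 ± 0.11 (edgeR adjusted p = 0.000425). Of the gap junction genes, Gjc3 had 61.2, 69.9 and 90.1 CPM in syn Cre-negative mice, against 49.0, 49.7 and 52.5 CPM in gfap Cre-negative mice. The groups did not overlap, and the log2 fold change was 0.52 ± 0.08 (edgeR adjusted p = 2.23e-05), with 0.48 ± 0.08 between Cre-positive mice. Gjb1 passed between Cre-positive mice (0.56 ± 0.12) and not between Cre-negative mice (0.18 ± 0.12).

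Among the lineage factors, Myrf, which drives myelin gene transcription, had 84.6, 91.6 and 109 CPM in syn Cre-positive mice, against 44.6, 52.8 and 67.3 CPM in gfap Cre-positive mice. It had 75.1, 83.9 and 121 CPM in syn Cre-negative mice, against 50.4, 60.3 and 70.2 CPM in gfap Cre-negative mice. The lines did not overlap in either Cre state, and the log2 fold change was 0.78 ± 0.11 between Cre-positive and 0.58 ± 0.11 between Cre-negative mice (edgeR adjusted p = 2.8e-05 and 0.00039). Sox10, present through the whole lineage, was called in both comparisons, at 0.54 ± 0.09 and 0.33 ± 0.09. Olig2 and Nkx2-2 were called in neither, Olig2 standing at 0.16 ± 0.08 and 0.03 ± 0.08 and Nkx2-2 at 0.12 ± 0.16 and 0.03 ± 0.16. Nkx6-2 passed between Cre-positive mice (0.77 ± 0.21) and not between Cre-negative mice (0.34 ± 0.21), where it passed without gfap Cre-negative library 4 (0.61, edgeR adjusted p = 0.0112). Olig1 passed between Cre-positive mice (0.23 ± 0.09, edgeR adjusted p = 0.0497), and that call was lost without any 1 of 15 libraries (adjusted p between 0.0541 and 0.105).

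The precursor genes did not follow the myelin genes. Pdgfra was lower in the syn line, with a log2 fold change of -0.23 ± 0.07 between Cre-positive and -0.20 ± 0.07 between Cre-negative mice (edgeR adjusted p = 0.0152 and 0.0295), and its ranges, given above, overlapped in part in both. With upper-quartile scaling the adjusted p was 0.056 and 0.0779, and with a filter of at least 1 CPM in 6 libraries 0.0585 and 0.0919. Between Cre-positive mice the call was also lost without the libraries rich in Ttr (-0.22, adjusted p = 0.0923). Between Cre-negative mice it was lost without syn Cre-negative library 1 or 2 or gfap Cre-negative library 1, 3 or 5 (adjusted p between 0.0511 and 0.109). Cspg4 stood at -0.02 ± 0.09 and -0.16 ± 0.09, and neither passed. Gpr17 was not called either (-0.04 ± 0.10 and 0.14 ± 0.10), whereas Bcas1 went with the myelin genes at 0.54 ± 0.12 and 0.51 ± 0.12, both called.

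**Figure D4:**
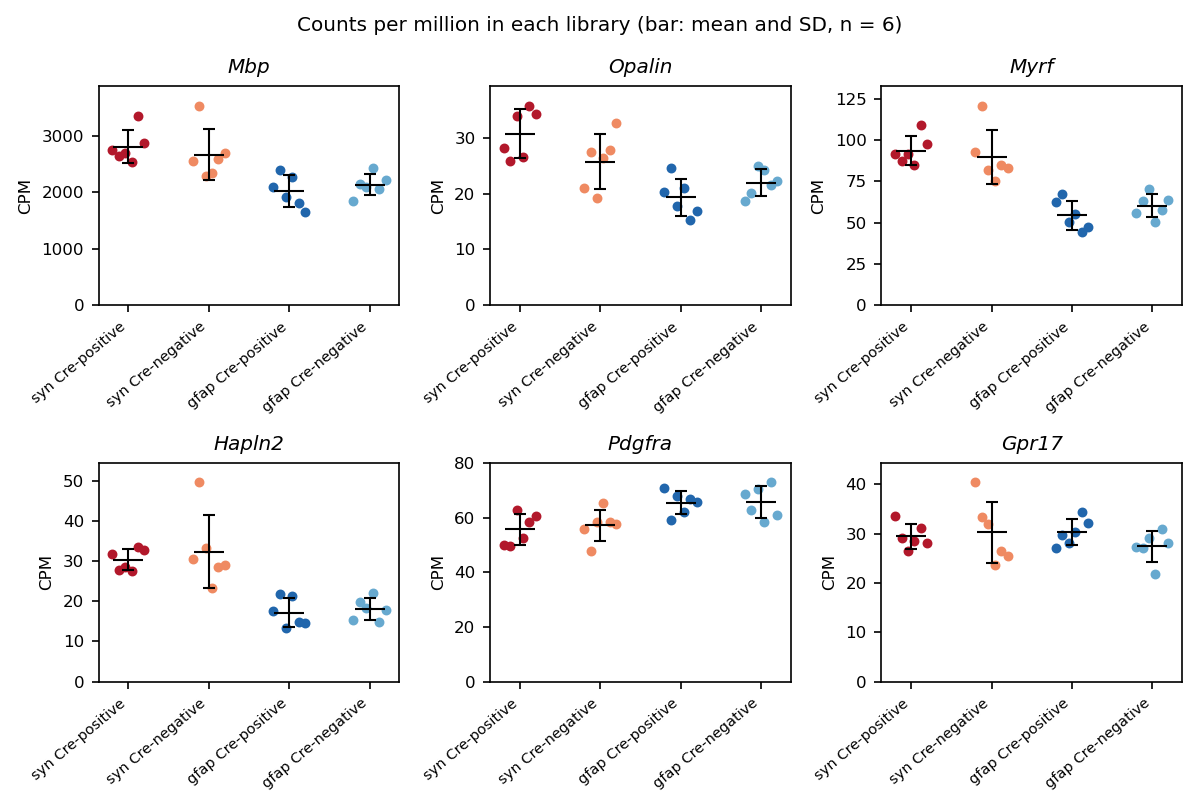
CPM of 6 members in each library of the 4 groups, with the group mean and SD as bars. The means of Mbp, Opalin, Myrf and Hapln2 lie higher in the syn groups and those of Pdgfra slightly lower. Between Cre-negative mice the ranges of Mbp, Opalin and Pdgfra overlap between the lines, as do those of Pdgfra between Cre-positive mice. The ranges of Gpr17 overlap in all groups.

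The remaining oligodendrocyte genes were called for 11 of 11 genes between Cre-positive and 5 of 11 between Cre-negative mice, all higher in the syn line. Hapln2 had 27.6, 30.2 and 33.6 CPM in syn Cre-positive mice, against 13.2, 16.2 and 21.8 CPM in gfap Cre-positive mice. It had 23.4, 29.8 and 49.7 CPM in syn Cre-negative mice, against 14.9, 18.1 and 22.1 CPM in gfap Cre-negative mice. The lines did not overlap in either Cre state, and the difference was the widest of the members. It was 1.77-fold (log2 fold change 0.82) between Cre-positive and 1.80-fold (0.84) between Cre-negative mice. Between Cre-positive mice Trf had nearly the same value, and the 49.7 CPM belongs to syn Cre-negative library 2. Trf stood at 0.82 ± 0.16 and 0.63 ± 0.16, with the limit on its count given above, and Anln, a septin-binding protein of myelin, at 0.47 ± 0.11 and 0.38 ± 0.11. Tmem125 was called between Cre-positive mice (0.73 ± 0.13) and stood at -0.01 ± 0.13 between Cre-negative mice.

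Ppp1r14a, a phosphatase inhibitor gene, stood at 0.75 ± 0.19 between Cre-positive and 0.31 ± 0.19 between Cre-negative mice, and only the first passed. Without gfap Cre-negative library 4 the Cre-negative value of Ppp1r14a was 0.57 and passed (edgeR adjusted p = 0.00416), and limma-voom with quality weights called it over all libraries (0.49, adjusted p = 0.0123). Calls between Cre-positive mice alone were also found for Ndrg1, a gene of myelin maintenance (0.33 ± 0.06 and 0.09 ± 0.06), Gpr37, an orphan receptor of oligodendrocytes (0.33 ± 0.08 and 0.11 ± 0.08), and Qdpr, which recycles biopterin (0.29 ± 0.08 and 0.11 ± 0.08). Between Cre-negative mice Qdpr passed without gfap Cre-negative library 4 (0.19, edgeR adjusted p = 0.038), and Ndrg1 without the libraries rich in Ttr (0.20, adjusted p = 0.0492). Some calls of this class lay close to the threshold or changed with 1 library left out. Lpar1, a lysophosphatidic acid receptor, was called between Cre-negative mice at an edgeR adjusted p of 0.0477, which was lost without any 1 of 16 libraries (adjusted p between 0.0508 and 0.154). Apod was called between Cre-positive mice at an adjusted p of 0.0493, lost without any 1 of 17 libraries (adjusted p between 0.0501 and 0.121). Without the libraries rich in Ttr its value was 0.23, against 0.47 over all libraries (edgeR adjusted p = 0.47). The call of Car2 between Cre-positive mice (0.19 ± 0.06) was lost without syn Cre-positive library 5 (0.15, edgeR adjusted p = 0.0677).

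The contrast between myelin and precursor genes was also taken within each library, as the median log2 CPM of the 14 myelin genes minus the mean log2 CPM of Pdgfra and Cspg4. The 14 genes differ widely in level, so this median follows the genes of middle rank and can miss shifts in the others. The contrast averaged 1.42 ± 0.16 (SD, n = 6) in syn Cre-positive mice, 1.43 ± 0.37 in syn Cre-negative mice, 0.82 ± 0.25 in gfap Cre-positive mice and 0.88 ± 0.23 in gfap Cre-negative mice. Single libraries ran from 1.251 to 1.61 in syn Cre-positive mice, against 0.44 to 1.13 in gfap Cre-positive mice, without overlap. They ran from 1.103 to 2.108 in syn Cre-negative mice, against 0.60 to 1.22 in gfap Cre-negative mice, with an overlap. Within each line the Cre-positive and Cre-negative means lay closer together than the SD of either group. The myelin term alone averaged 6.61 log2 CPM in each syn group, 6.14 in gfap Cre-positive and 6.23 in gfap Cre-negative mice. The myelin level was also read as the median deviation of the 14 genes, each from its own log2 mean over all libraries. That deviation averaged 0.27 ± 0.15 (SD) in syn Cre-positive and 0.17 ± 0.19 in syn Cre-negative mice. In gfap mice the averages were -0.27 ± 0.24 (Cre-positive) and -0.17 ± 0.14 (Cre-negative). The precursor term averaged 5.19 in syn Cre-positive, 5.18 in syn Cre-negative, 5.32 in gfap Cre-positive and 5.36 in gfap Cre-negative mice.

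**Figure D5:**
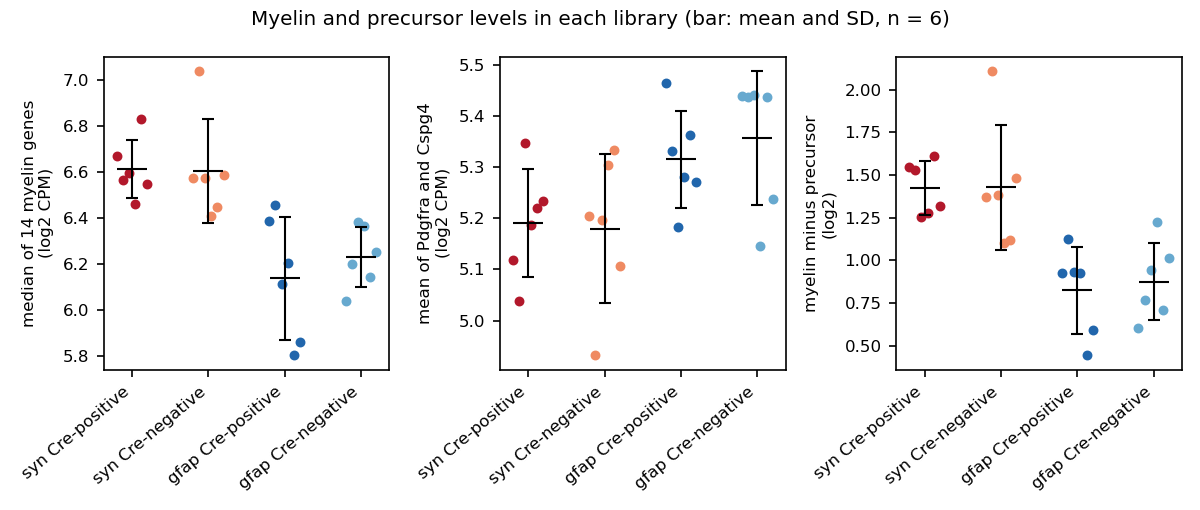
Myelin term, precursor term and their difference (log2) in each library of the 4 groups, with the group mean and SD as bars (n = 6). The difference is higher in the syn groups, and its highest value, 2.11, is a syn Cre-negative library.

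Wider lists of the same lineage were read beside the members. Of 27 further genes of mature oligodendrocytes, 18 were called between Cre-positive mice, all higher in the syn line, and 15 between Cre-negative mice, 14 higher and 1 lower. The shares over all genes in these comparisons are those given above. Plxnb3, a semaphorin receptor, stood at 0.92 ± 0.11 and 0.72 ± 0.11, and Tmem63a, an ion channel gene, at 0.65 ± 0.09 and 0.44 ± 0.09. Klk6, a secreted protease, had 2.65, 4.31 and 9.66 CPM in syn Cre-positive mice, against 0.569, 1.11 and 1.68 CPM in gfap Cre-positive mice, a log2 fold change of 2.09 ± 0.30 without overlap. Tppp, a tubulin-binding protein, was the gene that was lower (-0.17 ± 0.05 between Cre-negative mice).

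Of 10 further precursor genes, 3 were called in each comparison of the lines, and not all in the same direction. That is near the share of all genes called, 27.5% between Cre-positive and 31.2% between Cre-negative mice. Pcdh15, a cadherin, was higher in the syn line in both (0.50 ± 0.15 and 0.48 ± 0.15), and Rlbp1, a retinoid carrier, was lower in both (-0.31 ± 0.08 and -0.21 ± 0.08). Vcan, a matrix proteoglycan, was higher between Cre-positive mice (0.24 ± 0.08) and Megf11 was lower between Cre-negative mice (-0.31 ± 0.07). Of 9 tested genes of newly formed oligodendrocytes, 4 were called in each comparison, 3 higher and 1 lower. Enpp6, a choline phosphodiesterase, stood at 0.77 ± 0.11 and 0.30 ± 0.11, and Fyn, a kinase, was the lower gene in both (-0.20 ± 0.04 and -0.20 ± 0.04). Of 11 genes of sphingolipid and fatty acid synthesis, 3 were called in each, all higher, among them the ceramide synthase gene Cers2 (0.40 ± 0.06 and 0.33 ± 0.06) and the elongase gene Elovl1 (0.58 ± 0.10 and 0.56 ± 0.10). The 3 of 11 are near the share of all genes called in either direction, with 12.8% and 14.6% of all genes called higher. Elovl7, also called between Cre-negative mice, had 1405 to 1651 reads in the syn Cre-negative libraries rich in Ttr. It had 602 to 770 reads in the others of that group and 600 to 1001 in gfap Cre-negative libraries. The part of choroid plexus RNA in that call was not tested. None of these 4 lists had a called gene in either Cre comparison or in their difference.

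Markers of some other cells also differed between the lines. Over all genes, 12.8% were called higher and 14.7% lower between Cre-positive mice, and 14.6% and 16.6% between Cre-negative mice. In lists of 5 or 6 genes, 1 call is near such a share. The 6 neuron markers summed to 5594 to 6136 CPM in syn Cre-positive mice, against 6691 to 7899 CPM in gfap Cre-positive mice, and to 5603 to 6512 CPM in syn Cre-negative mice, against 6681 to 7752 CPM in gfap Cre-negative mice. They were called lower in the syn line for 5 of 6 genes between Cre-positive and 6 of 6 between Cre-negative mice. Choroid plexus markers were called higher for 4 of 6 and 6 of 6 genes, and endothelial markers lower for 5 of 6 and 3 of 6. Microglia markers were called lower for 2 of 6 and 1 of 6 genes and mural markers for 1 of 6 in each, while astrocyte markers went both ways, with 2 higher and 2 lower between Cre-positive and 1 higher and 2 lower between Cre-negative mice. Of the region lists, cerebellum markers were called higher for 3 of 4 tested genes between Cre-positive mice (median log2 fold change 1.26) and 0 of 4 between Cre-negative mice (median 0.58). The called genes Pcp2 and Cbln3 had few reads, 7 to 46 and 15 to 67 in syn Cre-positive libraries. In gfap Cre-positive libraries they had 2 to 9 and 11 to 22 reads. Zic1, also called, had 4059 reads in syn Cre-positive library 5 and 370 to 1073 in the others of that group. Cortex and hippocampus markers were called lower for 2 of 5 genes each in both Cre states, 1 of 5 thalamus markers was called higher between Cre-positive mice, and no striatum or meningeal fibroblast marker was called. Reads assigned to no counted feature, which can include intron reads, came to 7.52 to 11.1% in syn libraries, against 4.47 to 6.37% in gfap libraries. The 11.1% belongs to syn Cre-negative library 5, which also had the highest ambiguous share (7.46%); the other syn libraries reached at most 8.63%. The part of these differences in the line differences of the members was not tested. The line and any separate breeding or handling of the mice cannot be told apart. The 5 Schwann cell markers summed to 73.5 to 93.7 CPM over all libraries, most of it Drp2 (mean 80.9 CPM). None of the 3 tested was called between the lines. Pmp2, not tested, had 1 read in 1 library and 0 in the others.

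Single libraries carried much of the spread. Syn Cre-positive library 5 had the highest level of its group for 27 of 37 members, including all 14 myelin genes, and syn Cre-negative library 2 for 30 of 37 members. The same libraries had the highest levels of Prkcd, a kinase gene abundant in thalamus, at 84.9 and 43.9 CPM, against 14.8 to 29.2 CPM in all others. They were also highest for Plekhg1, another of the 5 thalamus markers (42.5 and 32.2 CPM), and for Zic1 of the cerebellum list (85.0 and 33.9 CPM). The other thalamus markers did not all follow: Tnnt1 and Lef1 were highest in syn Cre-positive library 5 (4.19 and 4.94 CPM) but not raised in syn Cre-negative library 2 (1.02 and 2.59 CPM), where Ntng1 was the lowest of its group (31.3 CPM). The part of these genes in the results was not tested. Without both libraries, 29 members were called between Cre-positive and 15 between Cre-negative mice. Without syn Cre-negative library 2 alone, 13 were called between Cre-negative mice, all higher in the syn line, and the calls of Mag, Cnp, Ermn, Tspan2, Ugt8a, Fa2h, Pdgfra and Lpar1 were lost. Without the 6 libraries rich in Ttr, 23 were called between Cre-positive and 21 between Cre-negative mice. The calls lost there between Cre-positive mice were those of Mal, Ermn, Olig1, Nkx6-2, Pdgfra, Ppp1r14a, Apod, Car2 and Qdpr, and between Cre-negative mice that of Lpar1.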

How the data were processed

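For each mouse the authors deposited 1 file of raw read counts by gene identifier. The submitters' processing notes name mm10, HISAT2 (no version), DESeq2 1.6.3 and HTSeq 0.6.0, and give no roles. The 5 summary lines of each file were left out. Identifiers were mapped to symbols with GENCODE M21 (GRCm38), which need not be the release counted with; 99.6% had a symbol.

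Groups come from the labels' cell type and genotype, with 6 mice each. Counts were filtered with filterByExpr, scaled by TMM and fitted in 1 model of 4 groups over all 24 libraries in edgeR 4.0.16 (R 4.3.3, robust quasi-likelihood F test, 20 residual degrees of freedom), with Benjamini-Hochberg adjustment over 19726 genes and a threshold of 0.05. CPM use the TMM-scaled totals, and library scores add 0.5 CPM before the log. Levels in text are lowest, median and highest of 6. The fit was tested on simulated data.

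Alternatives were RLE and upper-quartile scaling, no filter, DESeq2 1.42.0, limma-voom (limma 3.58.1), a filter of at least 1 CPM in 6 libraries, each line alone and each library left out. The sets without libraries over 1000 CPM of Ttr or over 40 CPM of Prkcd were chosen after seeing the data. Members, lists and tests were chosen with earlier results of these data known. All members are accounted for by role. Values are given for the main precursor and myelin genes, for the smallest p of each role in the Cre comparisons, for up to 5 called members with the smallest p between the lines, and for up to 3 genes of each further list; Aqp4 and some members were named after their values were seen.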

Additional observations from a re-analysis of the deposited data

Results flagged for a closer look

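Each of the 37 members was looked at in each group of 6 libraries, 148 gene and group pairs in all, for a highest or lowest library that stood far from the rest (gap to the nearest library over the range of the group above Dixon's 95% critical value). Chance marks about 1 in 20 of independent pairs, but these pairs share libraries and are not independent. The rule marked 21 pairs. In 9 of them syn Cre-negative library 2 was the highest, with 3524 CPM for Mbp, 1549 for Mobp, 283.4 for Mag, 401.3 for Mal, 220.6 for Cldn11, 90.14 for Gjc3, 237.5 for Bcas1, 20.44 for Trf and 49.67 CPM for Hapln2. Syn Cre-positive library 5 was highest for Fa2h (49.98 CPM) and Aspa (33.42 CPM), and syn Cre-positive library 6 for Ppp1r14a (15.67 CPM).

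In the gfap line, gfap Cre-negative library 4 was the highest for Olig1 (117.8 CPM), Nkx6-2 (10.9), Ppp1r14a (13.96) and Car2 (235.6 CPM). Gfap Cre-negative library 5 was the highest for Gjc3 (52.49 CPM) and library 1 of that group the lowest for Ugt8a (40.51 CPM). Gfap Cre-positive library 2 was the highest for Sox10 (47.47 CPM), and gfap Cre-positive library 6 the lowest for Olig1 (74.51 CPM) and Nkx2-2 (1.579 CPM). No member differed between the lines in its response to Cre by the test of that difference.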

How the results depend on the processing

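The counts of called members kept within 1.5 times their value under other scaling, filtering, tools and library sets, with 1 exception. Without syn Cre-negative library 2 the Cre-negative comparison called 13 members in place of 21, and leaving out each of the 24 libraries in turn gave 13 to 24 there and 29 to 32 between Cre-positive mice. The 0 calls of both Cre comparisons and of their difference held in all these settings. The median of the myelin genes in the syn Cre comparison moved from 0.12 to -0.09 without the choroid plexus-rich libraries and ran from 0.061 to 0.175 with single libraries left out. The choroid plexus-rich libraries include syn Cre-positive library 5 and not syn Cre-negative library 2, and the cause was not tested. Left-out libraries moved the myelin median from -0.13 to -0.01 in the gfap Cre comparison, from 0.10 to 0.25 in the difference, from 0.29 to 0.40 between Cre-negative and from 0.51 to 0.65 between Cre-positive mice. They moved the precursor median from -0.04 to 0.04, from -0.09 to -0.02, from 0.01 to 0.10, from -0.21 to -0.13 and from -0.16 to -0.10 in the same order of comparisons, starting with the syn Cre comparison. No called value changed sign. Of values of single members under an alternative, 5875 kept their side of the threshold, 106 fell short of it and 13 newly passed. The 5875 include both Cre comparisons and their difference, where no member was called in any setting. All changes lay in the comparisons between the lines. Of all genes called between Cre-positive mice, 46.5% were higher in the syn line, against 58.0% with RLE and 65.5% with upper-quartile scaling, and 46.8%, 52.8% and 58.5% between Cre-negative mice. The median of all genes moved by at most 0.045 with scaling. No paired analysis was possible because the replicate numbers follow accession order and pair nothing.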
